A study of Mus musculus with 24 samples.

Results

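The collagen chain genes of the mouse lung were examined in a poly(A)-selected RNA sequencing study of lung injury by diesel exhaust. The members are the protein-coding genes whose symbol has the form Col, a number, a and a number, matched by gene identifier. The table of 78275 genes holds 44 of them. They were split by the molecule they build into 11 fibrillar chains, 8 basement membrane chains (the 6 chains of type IV with Col15a1 and Col18a1) and 25 other chains. A filter on low counts left 17490 genes for testing, with 10 fibrillar, 8 basement membrane and 21 other chains among them, 39 chains in all.

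Each of the 8 groups holds 3 samples of lung, and the labels give male sex, an age of 20 weeks and the C57BL/6 strain for all. Of the groups, C stands for healthy mice without treatment and RIC for healthy mice with remote ischemic conditioning, in which the blood flow of the left leg was stopped and restored in 3 cycles of 5 min each, on 3 days per week for 4 weeks. DE mice breathed diesel exhaust in a chamber for 30 min per day, 5 days per week, over about 8 weeks. The exposure is meant to bring out features of pulmonary fibrosis. In DE+PFD the exposed mice also swallowed pirfenidone, a drug given against lung fibrosis, as a daily oral dose of 300 mg/kg suspended in 0.5% carboxymethylcellulose on 6 days of each week. Conditioning came first in RIC+DE and ran alongside the exposure in DE+RIC. The same 2 timings with pirfenidone added are called RIC+DE+PFD (conditioning first) and DE+PFD+RIC (conditioning alongside). The labels call the second timing perconditioning, while the library names of both its groups begin with PoC, which they do not explain, so the timing is given as the treatment labels have it. No group is labelled as given carboxymethylcellulose alone, so a difference between groups with and without pirfenidone covers drug and vehicle. The labels number the samples and do not say that each is a separate animal, so the p-values measure the spread between these samples. The labels also give each library 1 of 3 dates, without saying what was done then, with 9 libraries in March, 14 in October and 1 in November. All RIC+DE libraries are from March and all DE libraries from October.

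Collagens are secreted proteins of 3 chains wound into a triple helix. Fibrillar collagens such as types I, III and V are cut at their ends and line up into the fibrils that carry tension, and in lung fibrosis fibroblasts deposit them in the alveolar walls. Type IV collagen forms the sheet-like network of the basement membranes under epithelium and endothelium, where the alveolar network with the chains of Col4a3, Col4a4 and Col4a5 belongs to the gas exchange barrier. The other classes make beaded filaments (type VI), connect fibrils to their surroundings (the FACIT collagens), anchor epithelium to the tissue below (Col7a1) or span the cell membrane (Col13a1, Col17a1, Col23a1, Col25a1).

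For the promoters, RefSeq's windows of 250 bases before to 50 bases after a transcription start on build GRCm38.p6 held 35 of the 44 genes, in 38 windows. The 120 bases before the start of Col1a2, Col3a1 and Col5a1 are shown, to give 1 match of each motif searched in fibrillar chains whose levels are compared below. Capitals mark a CCAAT box (letters CCAAT) in Col1a2 at chr6:4505498-4505617, a TATA box (TATAAA) in Col3a1 at chr1:45311418-45311537 and a GC box (GGGCGG) in Col5a1 at chr2:27886305-27886424, all on the plus strand.
Col1a2: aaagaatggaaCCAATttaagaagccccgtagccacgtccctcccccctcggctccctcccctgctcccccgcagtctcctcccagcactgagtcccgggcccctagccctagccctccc
Col3a1: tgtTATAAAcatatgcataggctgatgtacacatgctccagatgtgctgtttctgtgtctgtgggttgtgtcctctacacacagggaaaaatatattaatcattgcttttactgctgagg
Col5a1: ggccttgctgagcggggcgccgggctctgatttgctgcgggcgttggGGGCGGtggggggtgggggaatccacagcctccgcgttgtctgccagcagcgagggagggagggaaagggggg
Each motif was searched on its own on both strands, so matches of different motifs may share bases. The GC box (on the other strand CCGCCC) was present in 23 of the 38 collagen windows (60.5%) and in 35.7% of all 32851 windows of the same length. The CCAAT box (on the other strand ATTGG) was present in 13 windows (34.2%, against 37.4% of all windows) and the TATA box (on the other strand TTTATA) in 5 (13.2%, against 13.6%). By class, the GC box was in 6 of 8 fibrillar, 5 of 8 basement membrane and 12 of 22 other windows. No basement membrane window held TATAAA. Such matches describe the letters of these windows and were not tested as sites. Col4a1 and Col4a2 lie head to head on opposite strands of chromosome 8. Their RefSeq starts on GRCm38.p6 lie 21 bases apart, at 11312826 on the minus strand (Col4a1) and 11312805 on the plus strand (Col4a2). By these starts the first bases of both genes overlap, with no gap between them.

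The libraries held 3906807 to 18494156 counts on genes, of which the 44 collagen chains took 0.0787% to 0.542%. RIC+DE+PFD 1 stood apart: 30 of the 39 tested chains had their lowest level there, its collagen share of 0.0787% was the lowest, and the 5 lung epithelium markers (Sftpc, Sftpb, Sftpa1, Ager, Scgb1a1) summed to 249576 CPM (counts scaled to a common library size), against 27762 to 98716 CPM in the other 23. Longer genes of any kind also tended to be low in RIC+DE+PFD 1. There the rank correlation across tested genes between exon length and the difference from the 24-library median was -0.549. RIC+DE 1 was the highest library for 15 of the 39 chains. No lung epithelium, fibroblast, smooth muscle or endothelium marker was at 0 in any library. In whole tissue, fewer cells of a type and less RNA per cell cannot be told apart.

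Levels were compared between genes per length, as CPM per kb of exon (mean ± SD over the 24 libraries). The length is that of all annotated exons of a gene merged, which can exceed the length of 1 transcript. It was 12426 bases for Col1a2 and 6563 for Col1a1. The highest was Col4a2 at 82.3 ± 18.1 CPM per kb, followed by Col4a1 at 73.9 ± 17.5 and by Col6a1, a chain of the type VI filaments, at 64 ± 13.2. Within libraries, Col4a2 was above Col4a1 in 22 of 24 and above Col6a1 in 24 of 24, and Col4a1 was above Col6a1 in 21 of 24. Among fibrillar chains, Col1a1 (44.7 ± 15.1), Col3a1 (41.9 ± 12.1) and Col1a2 (33.1 ± 9.27) led, with Col1a1 above Col3a1 in 15 of 24 libraries and Col3a1 above Col1a2 in 19 of 24. This order rests on the length: without it the means were 293 CPM for Col1a1, 412 for Col3a1 and 411 for Col1a2. Col5a2 (7.54 ± 1.83) and Col5a1 (6.71 ± 1.94), chains of type V that start type I fibrils, came next. In the basement membrane class, Col4a3 (13 ± 3.6), Col4a4 (11.7 ± 2.31) and Col4a5 (10.7 ± 2.27), the chains of the alveolar network, lay close to each other and below Col4a1. Col18a1, the source of endostatin, was at 8.24 ± 1.92, Col4a6 at 2.79 ± 0.808 and Col15a1 at 2.08 ± 0.939. In the remaining class, Col6a2 (28.9 ± 6.07), Col23a1 (18.6 ± 3.63) and Col13a1 (18 ± 4.57), of which the last pair span the cell membrane, followed Col6a1, with Col6a3 at 10.1 ± 2.93. The FACIT chains ran from Col16a1 (6.42 ± 1.5) and Col14a1 (6.1 ± 2.06) over Col12a1 (2.86 ± 0.745) and Col20a1 (1.62 ± 0.532) down to Col9a3 (0.607 ± 0.51) and Col9a2 (0.482 ± 1.15). The remaining tested fibrillar chains were Col5a3 (1.22 ± 0.475), Col27a1 (2.16 ± 0.847), Col11a2 (0.68 ± 0.529), Col2a1 (0.238 ± 0.619) and Col11a1 (0.0574 ± 0.152). The network chains Col8a1 and Col8a2 were at 1.55 ± 0.576 and 3.85 ± 0.832, Col7a1 at 1.2 ± 0.475 and Col17a1 at 1.44 ± 0.64. Col10a1, Col26a1 and Col28a1 were at 0.674 ± 2.01, 0.116 ± 0.045 and 0.41 ± 0.257, and the alternative type VI chains Col6a4, Col6a5 and Col6a6 at 0.0949 ± 0.0989, 0.0947 ± 0.0672 and 0.105 ± 0.0903. In Col2a1, Col6a4, Col9a2, Col10a1 and Col11a1 the SD exceeded the mean.

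The 5 chains that the filter removed are listed with their highest library: Col9a1 (3.3 CPM in RIC+DE 1), Col25a1 (1.55 CPM in RIC+DE 1), Col22a1 (1.23 CPM in DE 3), Col24a1 (0.841 CPM in RIC+DE 1) and Col19a1 (0.841 CPM in RIC+DE 1). Of the tested chains, Col6a4, Col6a5, Col6a6, Col26a1 and Col11a1 had means under 1 CPM, and Col2a1, Col9a2 and Col10a1 had medians under 1 CPM with a few high libraries.

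**Figure D1:**
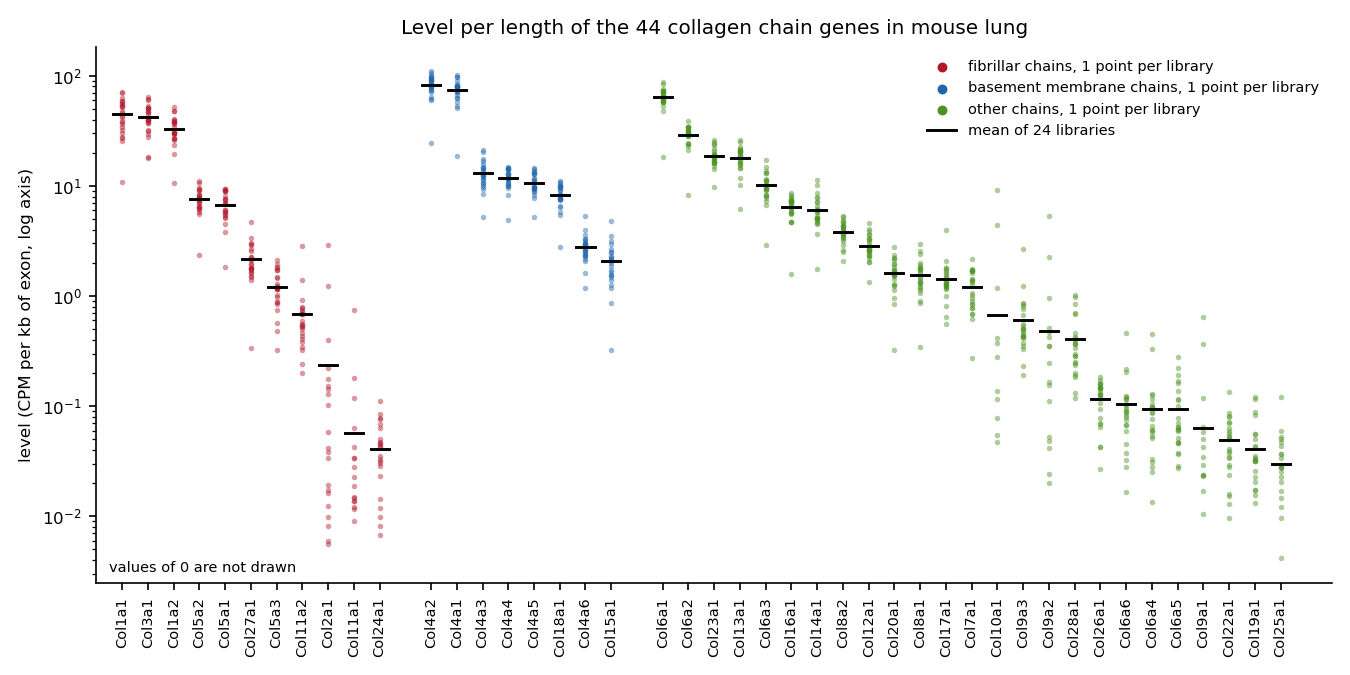
Level per length of each of the 44 collagen chain genes, in CPM per kb of exon on a log axis, with 1 point per library and a black bar for the mean of 24 libraries. Col4a2, Col4a1 and Col6a1 have the highest means (82.3, 73.9 and 64 CPM per kb), and Col2a1, Col9a2 and Col10a1 have single libraries far above their other points.

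Within each library, the basement membrane chains took the largest part of the summed collagen level per length. Their share was 35.6% to 47.1% (median 39.4%), that of the fibrillar chains 17.8% to 33.8% (median 27.2%) and that of the other chains 28.5% to 38.3% (median 33%). By this measure per length, the basement membrane share was above the fibrillar share in 24 of 24 libraries, and the other chains were above the fibrillar chains in 21 of 24. The fibrillar share was 25.4, 29.4 and 28.3% in C, 30.8, 23.1 and 28.2% in DE and 33.8, 28 and 31.8% in RIC, so that the 3 groups overlapped. In RIC+DE it spread from the lowest of all libraries to a value near the highest: 29.8, 17.8 and 31.5%. The basement membrane share was 44.9, 42.2 and 42.8% in DE+PFD+RIC and 35.6, 41 and 38.8% in DE, and these groups did not overlap. These orders rest on the division by length. As shares of summed CPM, the means in C were 33.9% for fibrillar, 40.9% for basement membrane and 25.2% for other chains. In RIC they were 37.7, 36.8 and 25.5%, so fibrillar chains stood above other chains in both. In CPM, the lowest basement membrane share in DE+PFD+RIC was 41.0% and the highest in DE 41.7%, with overlap.

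Within type I collagen, whose molecule has more alpha-1 than alpha-2 chains, the ratio of Col1a2 to Col1a1 per length was 0.747, 0.617 and 0.54 in C, 0.629, 0.71 and 0.64 in DE and 0.978, 1.18 and 1.00 in RIC+DE+PFD. All 3 RIC+DE+PFD libraries lay above all 3 DE libraries. Without division by length Col1a2 was above Col1a1, with means of 407 and 345 CPM in C and 347 and 281 CPM in DE. The size of the ratio therefore rests on the merged exon lengths and does not give the chains per molecule. The ratio of Col1a1 to Col3a1 was 0.765, 0.847 and 0.96 in C, 0.631, 0.665 and 0.679 in DE and 0.75, 0.938 and 0.779 in RIC+DE, and both C and RIC+DE lay above DE without overlap. An exact two-sided permutation test of 3 against 3 libraries cannot go below p = 0.1. In 4 of the 28 tests (4 ratios between chains, 7 pairs of groups) it reached that value, with an adjusted p of 0.56 over the 28, so none of these ratios passed. The ratio of Col4a2 to Col4a1 stayed between 0.862 and 1.15 in all 24 libraries.

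Pairs of chains were compared across the 24 libraries, as log2 CPM, in a family of 11. They include partners of one molecule and pairs that share none. Col4a1 and Col4a2, which wind into the common type IV molecule, gave Pearson's r = 0.983 (permutation p = 1e-05) and Spearman's rho = 0.932 (permutation p = 1e-05). Without the 2 libraries farthest from the median (RIC+DE+PFD 1 and DE 2) r was 0.928, and within dates it was 0.986 over 9 March and 0.985 over 14 October libraries. Col6a1 and Col6a2 gave Pearson's r = 0.963 (permutation p = 1e-05) and Spearman's rho = 0.770 (permutation p = 5e-05), and r was 0.805 without RIC+DE+PFD 1 and RIC+DE+PFD 2, 0.991 in March and 0.890 in October. The 2 chains of type I, Col1a1 and Col1a2, had a lower r of 0.860 (permutation p = 2e-05; rho = 0.720, permutation p = 0.0001), which was 0.759 without RIC+DE+PFD 1 and RIC+DE 2, 0.965 in March and 0.614 in October. Both chains of the alveolar network that share a molecule with Col4a5 also varied together: Col4a3 and Col4a4 had r = 0.847 (permutation p = 1e-05; rho = 0.754, permutation p = 3e-05), and r = 0.693 without RIC+DE+PFD 1 and DE+PFD+RIC 2, 0.956 in March and 0.808 in October. For the type V partners Col5a1 and Col5a2, r was 0.791 (permutation p = 0.0003; rho = 0.529, permutation p = 0.00803) over all libraries but 0.433 without RIC+DE+PFD 1 and DE 2, 0.941 in March and 0.357 in October, so that relation rested in large part on single libraries. Col1a1 and Col4a1, which share no molecule, still had r = 0.798 (permutation p = 0.0002; rho = 0.557, permutation p = 0.00559), which was 0.629 without RIC+DE+PFD 1 and RIC+DE 2, 0.845 in March and 0.722 in October. Col1a1 and Col3a1, of 2 molecules that meet in the same fibrils, had r = 0.858 (permutation p = 1e-05; rho = 0.789, permutation p = 2e-05), with 0.785 without the same 2 libraries, 0.878 in March and 0.823 in October. Col8a1 and Col8a2 had the lowest r, 0.641 (permutation p = 0.00102; rho = 0.607, permutation p = 0.00202), with 0.441 without RIC+DE+PFD 1 and DE+PFD 1, 0.858 in March and 0.328 in October. The other 3 pairs join cartilage chains, whose libraries fall into a few high ones and many near 0, so no r is given for them. The Benjamini-Hochberg adjusted p of Pearson's r was at most 0.00102 in the 11 pairs. A value of 1e-05 is the smallest that 100000 resamples give. These pairs share libraries, depth and cell makeup, so a high r marks levels that vary together between libraries and no more.

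**Figure D2:**
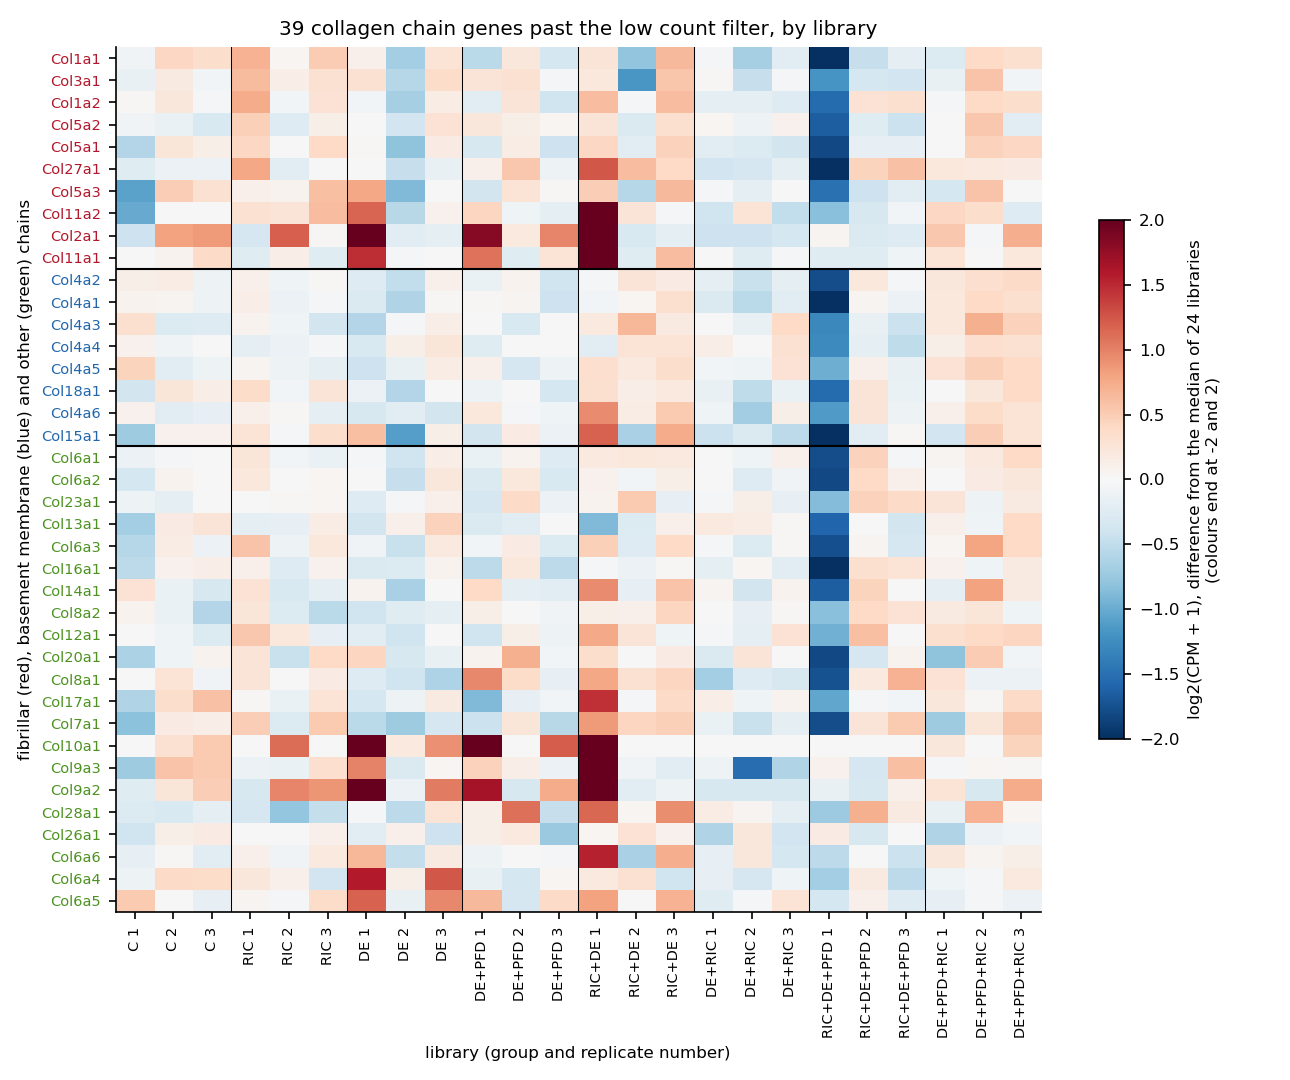
Log2(CPM + 1) of the 39 tested chains in each library, as the difference from the median of the 24 libraries, with chains grouped by class and libraries by group. RIC+DE+PFD 1 is the lowest library for 30 of 39 chains, and Col2a1, Col9a2, Col10a1 and Col11a1 are high in RIC+DE 1, DE 1 and DE+PFD 1.

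The groups were compared in 10 contrasts and 3 interactions with edgeR's quasi-likelihood test on the counts of all 24 libraries, with a term for the date, so a log2 fold change can differ from the ratio of the mean levels. In each of the 13, 0 of 17490 genes passed an adjusted p under 0.05 (0%), and so 0 collagen chains did. Log2 fold changes are given ± SE, where the SE is the size of the log2 fold change divided by the square root of the test's F statistic. DESeq2 on the same counts called 2 chains (Col7a1 and Col17a1) in RIC+DE against DE, where it called 0.443% of all genes. In the interaction of pirfenidone with conditioning before the exposure it called 3 (Col7a1, Col17a1 and Col4a6) beside 14.4% of all genes. It called 1 (Col10a1) each in DE+RIC against DE (0.047% of all genes), RIC+DE+PFD against DE (0.224%) and the conditioned against the unconditioned diesel groups (0.0411%), and 0 in the other 8, where it called 0 to 17 genes. Without the filter on low counts edgeR called 3 chains in DE against C (Col2a1, Col9a2 and Col10a1, all chains of cartilage) beside 0.481% of all genes, 7 in RIC+DE against DE beside 2.73% and 13 in the interaction of pirfenidone with conditioning before the exposure beside 5.27%. It also called 3 in DE+RIC against DE (0.554% of all genes), 5 in RIC+DE+PFD against DE (0.839%), 3 in DE+PFD+RIC against DE (0.74%) and 4 in the conditioned groups (0.646%). In the interaction with conditioning during the exposure it called 2 (0.397%) and in that of diesel with conditioning 1 (0.699%). A fit of RIC+DE and DE alone called 5 chains and 23.6% of all genes. For each contrast, the number of chains at an unadjusted p under 0.05 stands beside the share of all tested genes that reached it.

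The first question was whether diesel exhaust alone moved the collagen chains. Col1a1 had 277, 386 and 371 CPM in C and 313, 180.2 and 351 CPM in DE, and the groups overlapped. Col3a1 had 362, 456 and 386 CPM in C and 496, 271 and 518 CPM in DE, also with overlap. For Col4a1 there were 607, 601 and 538 CPM in C and 473, 379 and 589.8 CPM in DE, with 2 of 3 DE libraries below all of C. None of the 39 tested chains reached an unadjusted p under 0.05 in DE against C, where 3.33% of all genes did. The median log2 fold change was 0.026 over fibrillar, -0.21 over basement membrane and -0.034 over other chains, beside -0.00057 over all genes. Of the 8 basement membrane chains, 7 had values below 0, including all 6 type IV chains. Among tested genes with 4000 to 8000 exon bases, 3369 of 5616 were below 0. The median over all chains, -0.073, ran from -0.17 (without DE 1) to 0.013 (without RIC+DE+PFD 1) with 1 library left out.

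The 3 smallest p-values of that contrast belonged to low chains. Col6a4, an alternative alpha chain of type VI, had 0.496, 1.09 and 1.08 CPM in C and 3.83, 0.746 and 2.81 CPM in DE. Its log2 fold change was 1.39 ± 0.69, with an edgeR adjusted p of 0.988. Col6a5, of the same branch, had 1.3, 0.604 and 0.433 CPM in C and 2.63, 0.448 and 2.11 CPM in DE, with a log2 fold change of 1.26 ± 0.63 and an edgeR adjusted p of 0.988. In both genes DE 1 and DE 3 were high and DE 2 was within the range of C. Col10a1, the collagen of hypertrophic cartilage, is described with the cartilage chains below (log2 fold change 4.60 ± 2.47, edgeR adjusted p = 0.988). The adipocyte markers (6 genes) summed to 1696, 237 and 459.5 CPM in DE and 96.6, 178 and 203 CPM in C, so they too were highest in DE 1. Without DE 1 the log2 fold changes were 0.87 for Col6a4 and 0.78 for Col6a5. The mesothelium markers (4 genes) summed to 188, 196 and 185 CPM in DE and 110, 106 and 137 CPM in C, without overlap. The part of adipocyte or mesothelium RNA in the values of the chains was not tested.

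Conditioning of healthy mice gave the fewest genes of any contrast, 1.19% at an unadjusted p under 0.05, and 0 of the 39 chains. Fibrillar chains had a median log2 fold change of 0.34 in RIC against C, with 8 of 10 above 0, while basement membrane chains had -0.022 and other chains 0.11 (all genes -0.0045). Of all genes 49.0% were above 0. Col7a1, the anchoring fibril chain, had 6.39, 13.7 and 13.3 CPM in C and 17.3, 9.79 and 17.8 CPM in RIC (log2 fold change 0.60 ± 0.40). Col6a3 had 79.7, 131 and 109 CPM in C and 176, 111 and 137 CPM in RIC (log2 fold change 0.46 ± 0.33). Col11a2, a fibrillar chain of cartilage that is also found elsewhere at low levels, had 1.36, 3.75 and 3.79 CPM in C and 4.91, 4.68 and 6.29 CPM in RIC, without overlap (log2 fold change 0.89 ± 0.60). The edgeR adjusted p of each of the 3 was 1.00. Most of these values turned on RIC 1. Without it the fibrillar median was 0.077 and that of all chains went from 0.14 to -0.069, with 16 of 39 above 0. Without it Col7a1 stood at 0.050 and Col6a3 at 0.082, while Col11a2 stood at 0.90. With October libraries alone the 3 genes were at 0.047, 0.054 and 0.55.

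Over the 18 libraries of the 6 diesel groups against the 6 unexposed libraries, 19 of 39 collagen chains were above 0, with medians of -0.088 for fibrillar, -0.012 for basement membrane and 0.0044 for other chains (all genes 0.0035). The count above 0 was 26 of 39 without RIC 1 and 15 of 39 without RIC 2, with medians over all chains of 0.11 and -0.076. An unadjusted p under 0.05 was reached by 2 of 39 chains, beside 3% of all genes. One was Col28a1, a chain with von Willebrand factor A domains. It had 0.584 to 1.41 CPM (median 1.18) in the unexposed and 0.642 to 5.04 CPM (median 1.89) in the diesel libraries, of which 14 of 18 lay above every unexposed one. Its log2 fold change was 1.01 ± 0.36, with an edgeR adjusted p of 1.00. The other was Col1a1, with 277 to 469 CPM (median 379) in the unexposed and 71.1 to 458 CPM (median 252) in the diesel libraries. Its direction was lower with diesel exhaust, at a log2 fold change of -0.50 ± 0.22 and an edgeR adjusted p of 1.00, and 10 of 18 diesel libraries lay below every unexposed one. Without RIC 1 it was -0.29. Next came Col18a1 at -0.20 ± 0.16, with an edgeR adjusted p of 1.00.

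**Figure D3:**
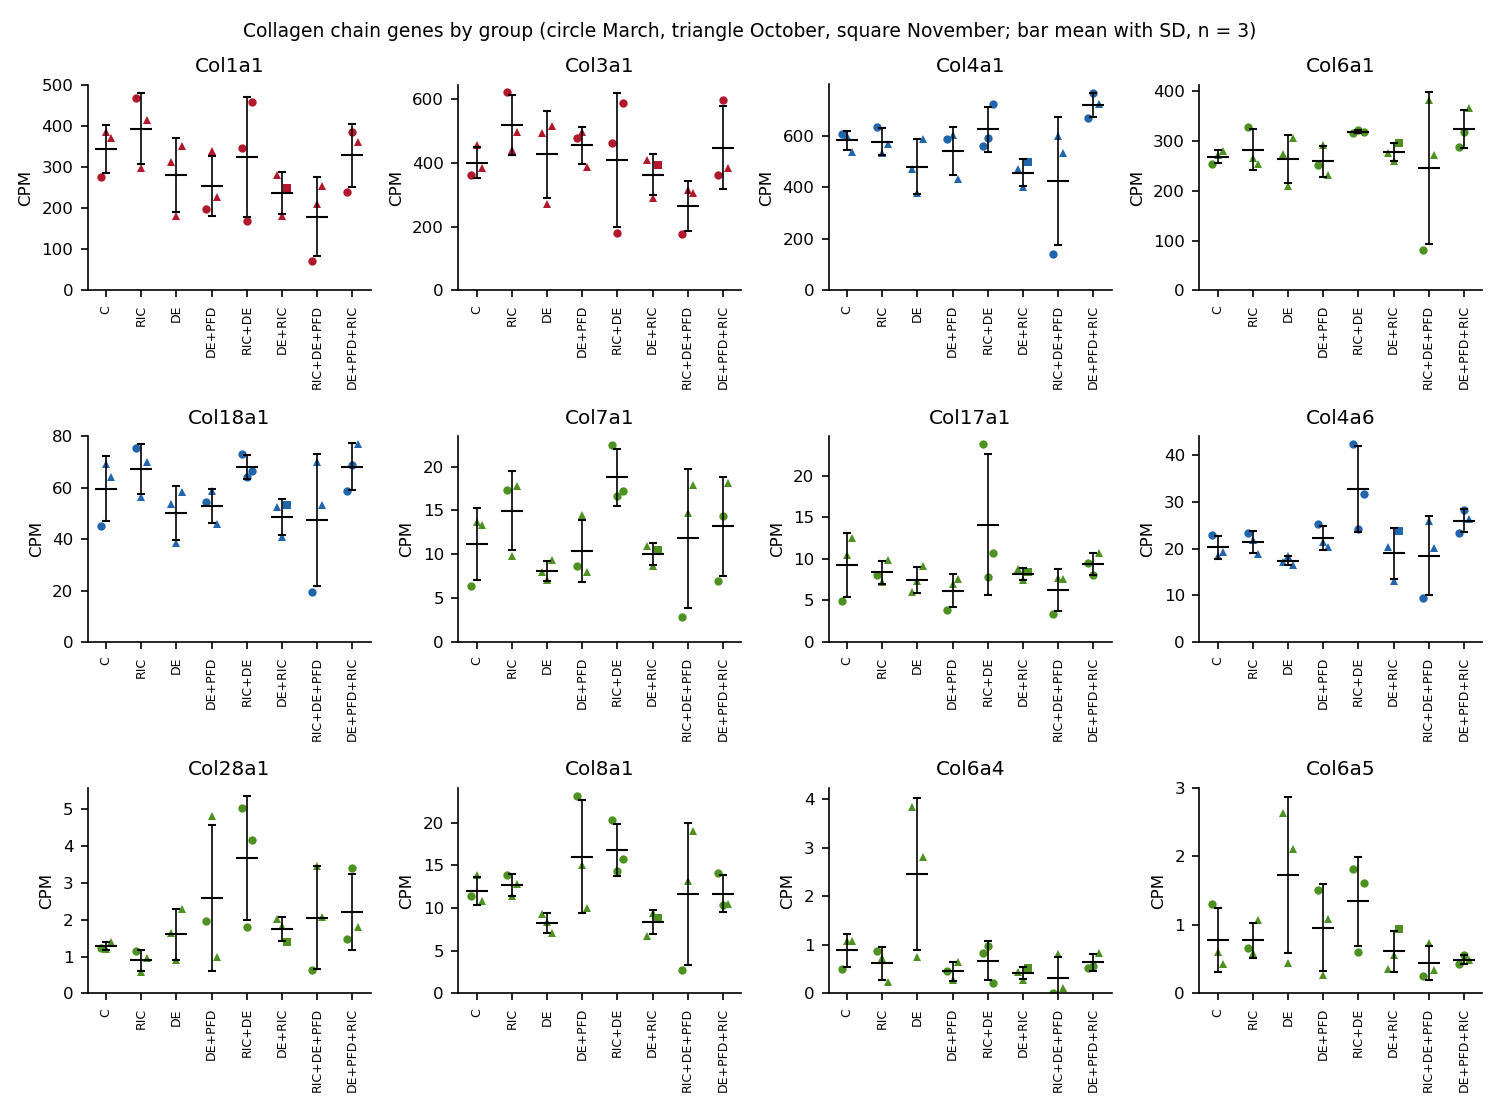
CPM of 12 collagen chain genes in each library by group, with the mean and SD of 3 libraries and the date of the library as the symbol (circle March, triangle October, square November). Col1a1 overlaps between C (277, 386 and 371 CPM) and DE (313, 180.2 and 351 CPM), Col6a4 is highest in DE 1 and DE 3, and Col4a1 in DE+PFD+RIC lies above all DE libraries.

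Pirfenidone added to the exposure (DE+PFD against DE) gave medians of 0.080 for fibrillar, 0.10 for basement membrane and 0.10 for other chains (all genes -0.0058). With 1 library left out the median over all chains, 0.10, ran from -0.054 (without DE 2) to 0.21 (without DE+PFD 3). At an unadjusted p under 0.05 stood 2 of 39 chains, beside 2.81% of all genes. Col6a4 had 0.454, 0.268 and 0.653 CPM in DE+PFD, below all 3 DE libraries (3.83, 0.746 and 2.81 CPM), with a log2 fold change of -2.12 ± 0.77 and an edgeR adjusted p of 1.00. Col8a1, a short chain of vessel wall networks, had 23.1, 15 and 10.0 CPM in DE+PFD and 9.31, 8.36 and 7.03 CPM in DE, also without overlap (log2 fold change 1.00 ± 0.45, edgeR adjusted p = 1.00), and without DE+PFD 1 it was at 0.55. Col6a5 had 1.51, 0.268 and 1.09 CPM in DE+PFD, a log2 fold change of -0.87 ± 0.63 against DE. Col1a1 had 199, 338 and 227 CPM in DE+PFD, within the range of DE.

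Conditioning before the exposure (RIC+DE against DE) gave the highest median over all chains of the 10 contrasts: 36 of 39 chains had a log2 fold change above 0, with a median of 0.70, beside 0.0044 over all genes and 0.16 over the 5616 tested genes with 4000 to 8000 exon bases. Of the 5616 genes 64.4% were above 0, and of all genes 50.3%. The 5616 genes are shorter than the chains, with a median of 5492 exon bases against 7464. Of the 39 chains, 17.0 are longer than 8000 and 3.0 shorter than 4000 bases. The class medians were 0.89 for fibrillar, 0.60 for basement membrane and 0.64 for other chains. These values rest on the term for the date. Without it, the median difference of the chains of a class from their 24-library medians was taken in each library, as log2 CPM. For fibrillar chains its mean was 0.21 in RIC+DE and -0.11 in DE. For basement membrane chains it was 0.24 and -0.18, and for other chains 0.31 and -0.094. Of the 39 chains, 8 had an unadjusted p under 0.05 (20.5%), all higher in RIC+DE. Of all genes 17.2% had one in either direction and 7.79% were higher with one, as were 617 of the 5616 genes with 4000 to 8000 exon bases. Col17a1, a transmembrane collagen of hemidesmosomes, had 23.7, 7.84 and 10.7 CPM in RIC+DE and 6.02, 7.31 and 9.14 CPM in DE. It overlapped between the groups, with the highest value of all 24 libraries in RIC+DE 1, at a log2 fold change of 1.63 ± 0.41 and an edgeR adjusted p of 0.249. Col7a1 had 22.5, 16.6 and 17.2 CPM in RIC+DE and 7.99, 7.02 and 9.32 CPM in DE, without overlap (log2 fold change 1.94 ± 0.49, edgeR adjusted p = 0.249). Without the term for the date the values were 0.92 for Col17a1 and 1.21 for Col7a1, and without RIC+DE 1 Col17a1 was at 1.02. Both proteins serve the attachment of epithelium to the tissue below it. Col4a6 had 42.5, 24.2 and 31.7 CPM in RIC+DE and 17.2, 18.5 and 16.5 CPM in DE, without overlap (log2 fold change 0.97 ± 0.33, edgeR adjusted p = 0.274).

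Several measures moved with this contrast. The 2 groups share no date, so the date and the group cannot be told apart in these 6 libraries alone, and the term for the date comes from the other groups. The rank correlation across tested genes between exon length and a library's difference from the median was 0.376, 0.465 and 0.421 over the RIC+DE libraries and -0.275, -0.307 and -0.21 over the DE libraries, so longer genes stood higher in every RIC+DE library and lower in every DE library. The same correlation was 0.328 in C 1 and 0.297 in RIC 1, both of March. In the October libraries of C it was -0.167 and -0.271, and in those of RIC -0.23 and -0.207. RIC+DE+PFD 1 of March (-0.549), and RIC+DE+PFD 2 and DE+PFD+RIC 3 of October (0.0658 and 0.286), had the opposite sign to the other libraries of their date. The median exon length over all tested genes with a length was 4040 bases. Lung epithelium markers summed to 27762, 44693 and 47835 CPM in RIC+DE and 59933, 98716 and 74724 CPM in DE. Skeletal muscle markers (7 genes) summed to 2432, 28 and 1192 CPM in RIC+DE and 63.3, 28.2 and 29.9 CPM in DE. Their part in the result was not tested. Without RIC+DE 1 the fibrillar median was 0.29, while the basement membrane median was 0.67 and that of the other chains 0.47. Without RIC+DE+PFD 1 and DE 1 the basement membrane median was 0.27. Over each library left out in turn, the median of all chains ran from 0.49 (without RIC+DE+PFD 1) to 0.88 (without RIC 1).

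Whether exposure and conditioning combined beyond the sum of their parts was tested as an interaction over C, RIC, DE and RIC+DE. The chains had a median of 0.53 (all genes 0.011, genes with 4000 to 8000 exon bases 0.17), and 2 of 39 had an unadjusted p under 0.05, beside 5.95% of all genes. The median of the chains was 0.85 without RIC 1, 0.30 without RIC+DE+PFD 1, 0.26 without the term for the date and 0.22 in a fit of these 4 groups alone. Col17a1 had the smallest p, with an interaction of 1.65 ± 0.51 on the log2 scale and an edgeR adjusted p of 0.618.

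Conditioning during the exposure (DE+RIC against DE) gave medians of -0.27 for fibrillar, -0.079 for basement membrane and -0.029 for other chains (all genes 0.0061). The median over all chains was -0.060 and ran from -0.24 (without DE 2) to 0.029 (without DE 3) with 1 library left out. DE+RIC 3 is the single November library, and with its own term for the date it adds nothing to the fitted values of this group. At an unadjusted p under 0.05 stood 3 of 39 chains, all lower in DE+RIC, beside 3.21% of all genes in either direction and 2.56% lower. Col6a4 had 0.439, 0.28 and 0.52 CPM in DE+RIC, below all DE libraries (3.83, 0.746 and 2.81 CPM), with a log2 fold change of -2.71 ± 0.88 and an edgeR adjusted p of 1.00. Col6a5 had 0.351, 0.559 and 0.935 CPM in DE+RIC and a log2 fold change of -1.96 ± 0.75. Col9a2, a cartilage FACIT chain, had 0 counts in all 3 DE+RIC libraries and 7.01, 0.149 and 1.58 CPM in DE. Against a floor of 3 counts over all 3 DE+RIC libraries, Col9a2 was at least 43.3-fold lower, and at least 10.2-fold without DE 1. The 3 DE libraries held 64, 1 and 9 counts of it. Col10a1 likewise had 0 counts in DE+RIC, beside 126, 1 and 5 counts in DE. By the same floor Col10a1 was at least 77.3-fold lower, and at least 6.1-fold without DE 1. Unlike the fitted values, these bounds take in DE+RIC 3, a library of 18494156 counts. They would be smaller without it and were not computed so. They also take the observed DE counts as exact, without sampling error.

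Of the 2 groups with exposure, conditioning and drug, DE+PFD+RIC had fitted values above DE in most chains and RIC+DE+PFD below. In DE+PFD+RIC against DE, 29 of 39 chains had a log2 fold change above 0, with medians of 0.31 for fibrillar, 0.60 for basement membrane and 0.42 for other chains, beside -0.013 for all genes and 0.13 for the genes with 4000 to 8000 exon bases. Of the genes with 4000 to 8000 exon bases 64.0% were above 0. The median over all chains, 0.49, ran from 0.27 (without RIC+DE+PFD 1) to 0.59 (without DE 1) with 1 library left out. All 8 basement membrane chains were above 0, from 0.38 to 0.73. Col4a1 had 669, 765 and 725 CPM in DE+PFD+RIC, above all 3 DE libraries (473, 379 and 589.8 CPM), and Col4a2 had 650.4, 701 and 726 CPM against 468, 397 and 598 CPM, also without overlap. At an unadjusted p under 0.05 stood 7 of 39 chains (17.9%), 5 higher and 2 lower, beside 9.15% of all genes. The smallest p belonged to Col6a5, with 0.431, 0.566 and 0.481 CPM in DE+PFD+RIC and a log2 fold change of -2.05 ± 0.69 (edgeR adjusted p = 0.529). Col7a1 had 6.99, 14.4 and 18.1 CPM and a log2 fold change of 1.15 ± 0.44 (edgeR adjusted p = 0.529), with overlap. Col18a1 had 58.9, 68.8 and 77 CPM against 53.7, 38.5 and 58.4 CPM, without overlap (log2 fold change 0.69 ± 0.31, edgeR adjusted p = 0.529). Without the term for the date Col7a1 was at 0.70 and Col18a1 at 0.44. The rank correlation with exon length described above was 0.181, 0.453 and 0.286 in DE+PFD+RIC, while smooth muscle markers (6 genes) summed to 1108, 1041 and 1052 CPM there and 1389, 1319.6 and 1529.9 CPM in DE, without overlap. Lung epithelium markers summed to 74996, 48168 and 51515 CPM in DE+PFD+RIC and 59933, 98716 and 74724 CPM in DE. The part of these measures in the values was not tested. With October libraries alone the fibrillar median was -0.17 and the basement membrane median 0.57.

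In RIC+DE+PFD against DE, 28 of 39 chains were below 0, beside 2711 of the 5616 genes with 4000 to 8000 exon bases. The medians were -0.68 for fibrillar, -0.16 for basement membrane and -0.061 for other chains. Over all genes the median was 0.043, and over the genes with 4000 to 8000 exon bases 0.015. The rank correlation with exon length was -0.549, 0.0658 and -0.194 in RIC+DE+PFD, and its part in the values was not tested. With 1 library left out the median over all chains, -0.21, ran from -0.52 (without RIC+DE+PFD 2) to -0.035 (without RIC+DE+PFD 1). The class medians turned on RIC+DE+PFD 1 and DE 1: with both left out they were -0.084, 0.23 and 0.33. Col4a1 had 141, 599 and 534 CPM in RIC+DE+PFD, with the first library far below the other pair, and Col1a1 had 71.1, 212 and 255 CPM. There were 6 chains with an unadjusted p under 0.05 (15.4% of 39), all lower, beside 9.5% of all genes in either direction and 5.52% lower. Col6a4 had 0, 0.819 and 0.115 CPM in RIC+DE+PFD (log2 fold change -2.72 ± 0.77, edgeR adjusted p = 0.315) and Col6a5 had 0.257, 0.728 and 0.346 CPM (log2 fold change -1.99 ± 0.65, edgeR adjusted p = 0.379). Col4a4 had 51.5, 109 and 88.3 CPM in RIC+DE+PFD and 102, 135 and 148 CPM in DE (log2 fold change -0.57 ± 0.21, edgeR adjusted p = 0.438). Without RIC+DE+PFD 1 and DE 1 these stood at -1.81 for Col6a4 and -1.17 for Col6a5, and without RIC+DE+PFD 2 Col6a4 was at -5.00. All contrasts with DE share its libraries, in which Col6a4 and Col6a5 were high in DE 1 and DE 3.

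The interaction of pirfenidone with conditioning before the exposure had 38 of 39 chains below 0 and a median of -1.04 (all genes -0.047, genes with 4000 to 8000 exon bases -0.27). Of the genes with 4000 to 8000 exon bases, 3711 of 5616 were below 0. Here 11 of 39 chains (28.2%) had an unadjusted p under 0.05, all of them below 0. Of all genes 27.2% had one in either direction and 8.99% were below 0 with one, as were 569 of the 5616 genes with 4000 to 8000 exon bases. The smallest edgeR adjusted p among chains was 0.0836, for Col17a1 at -1.62 ± 0.55 on the log2 scale. The median of the chains was -0.42 without RIC+DE+PFD 1 and -0.44 without RIC+DE+PFD 1 and DE 1, with 30 of 39 below 0 in the latter. The interaction with conditioning during the exposure had a median of 0.49 (all genes 0.0097), and 1 of 39 chains had an unadjusted p under 0.05, beside 2.67% of all genes.

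**Figure D4:**
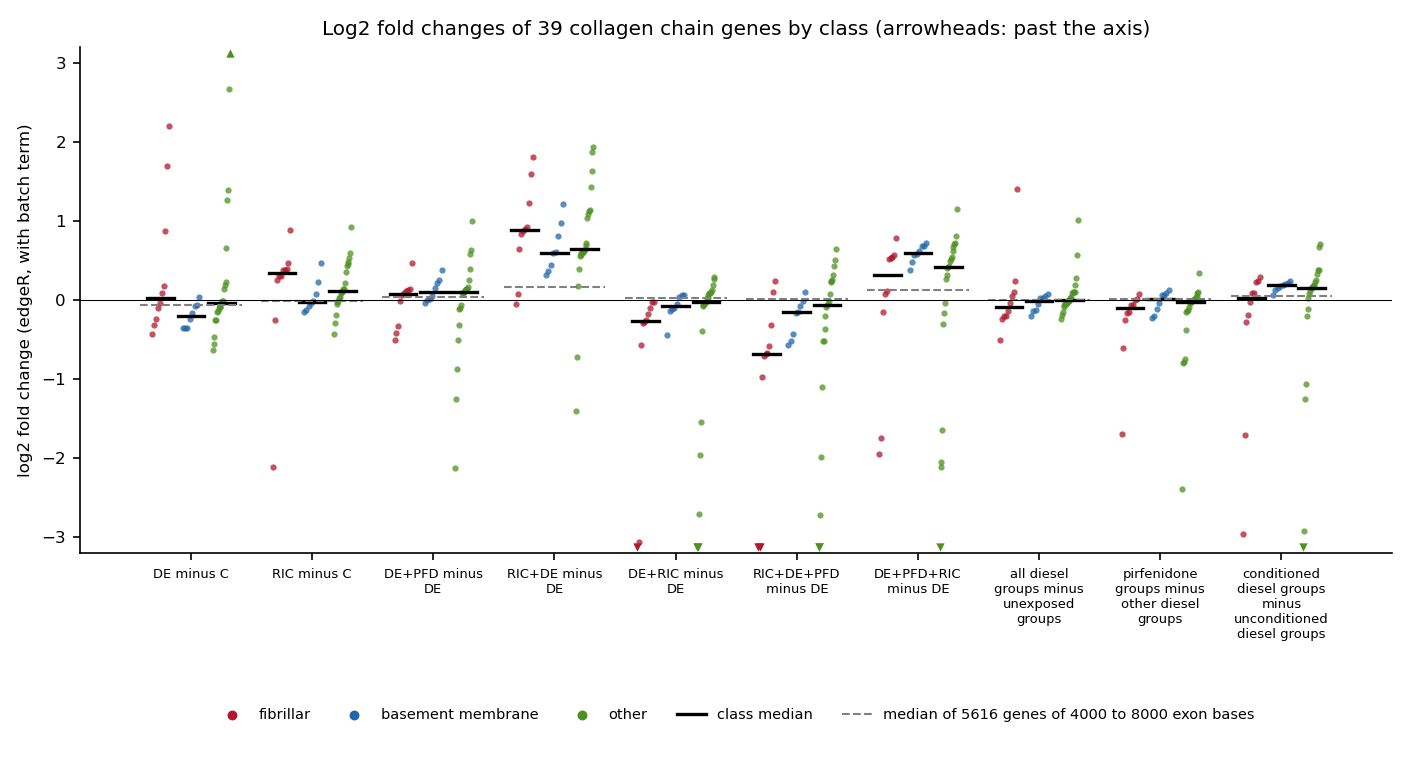
Log2 fold changes of the 39 tested chains in the 10 contrasts, by class, with class medians in black and the median of the 5616 genes with 4000 to 8000 exon bases as a dashed grey line. All 3 class medians lie above that line in RIC+DE, DE+PFD+RIC and DE+PFD against DE. In DE+PFD against DE they are 0.080, 0.10 and 0.10, with the line at 0.033. In every other contrast some class median lies below it, such as the fibrillar median of -0.68 in RIC+DE+PFD against DE.

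Pooled over timings, the 9 pirfenidone libraries against the 9 other diesel libraries had chain medians of -0.11 for fibrillar, 0.013 for basement membrane and -0.029 for other chains (all genes 0.020). With 1 library left out the median over all chains, -0.036, ran from -0.13 (without RIC+DE+PFD 2) to 0.016 (without DE+PFD 3). No chain had an unadjusted p under 0.05, beside 4.27% of all genes. Col1a1 had 71.1 to 385 CPM (median 241) with and 168 to 458 CPM (median 282) without pirfenidone, and a log2 fold change of -0.15 ± 0.23. The smallest p belonged to Col6a5, with 0.257 to 1.51 CPM (median 0.481) with and 0.351 to 2.63 CPM (median 0.935) without the drug (log2 fold change -0.74 ± 0.40, edgeR adjusted p = 0.957). Col17a1 followed at -0.37 ± 0.20 and Col6a6, another alternative type VI chain, at -0.79 ± 0.46.

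Pooled over timings and drug, the 12 conditioned against the 6 unconditioned diesel libraries had medians of 0.028 for fibrillar, 0.18 for basement membrane and 0.15 for other chains (all genes -0.0028), and all 8 basement membrane chains were above 0. Of the genes with 4000 to 8000 exon bases 60.8% were above 0. Over all chains the median was 0.15, and with 1 library left out it ran from 0.067 (without RIC+DE+PFD 2) to 0.25 (without DE+PFD 1). Of the 39 chains, 4 had an unadjusted p under 0.05, 2 higher and 2 lower, beside 6.63% of all genes. Col6a5 had 0.257 to 1.81 CPM (median 0.563) with and 0.268 to 2.63 CPM (median 1.3) without conditioning (log2 fold change -1.25 ± 0.40, edgeR adjusted p = 0.599). Col17a1 had 3.34 to 23.7 CPM (median 8.24) with and 3.86 to 9.14 CPM (median 7.14) without (log2 fold change 0.67 ± 0.23, edgeR adjusted p = 0.687), and Col7a1 had 2.83 to 22.5 CPM (median 14.6) with and 7.02 to 14.4 CPM (median 8.35) without (log2 fold change 0.71 ± 0.27, edgeR adjusted p = 0.716). Col1a1 was at 0.084 ± 0.25, and the direction turned in 4 of 34 alternative settings.

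A set of 7 chains of cartilage (Col2a1 and Col11a1 and Col11a2 of its fibrils, Col9a1, Col9a2 and Col9a3 on their surface, and Col10a1) was high in single libraries of 3 groups. Summed, they had 2.36, 9.43 and 10.4 CPM in C, 6.62, 11.5 and 10.7 in RIC, 50.8, 4.33 and 8.97 in DE, 20.9, 6.15 and 9.46 in DE+PFD and 115, 6.56 and 6.32 in RIC+DE. RIC+DE 1, DE 1 and DE+PFD 1 were high, and the libraries beside them in the same groups were within the range of C. The highest sum among the 9 libraries of DE+RIC, RIC+DE+PFD and DE+PFD+RIC was 9.32 CPM. Col2a1, the main fibril chain of cartilage, had 11.5, 0.149 and 0.176 CPM in DE and 26.6, 0.0754 and 0.161 CPM in RIC+DE. Col10a1 had 13.8, 0.149 and 0.879 CPM in DE, 3.71, 0 and 1.31 CPM in DE+PFD and 28.4, 0 and 0 CPM in RIC+DE. It was at 0 in all 3 libraries of DE+RIC and of RIC+DE+PFD.

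The same libraries were high in 8 cartilage markers that are no collagens (Acan, Comp, Matn1, Matn3, Cnmd, Snorc, Hapln1, Cytl1). They summed to 230.0 CPM in RIC+DE 1, 103 in DE 1 and 76.6 in DE+PFD 1, and to 12 to 50.8 CPM in the other 21, most of which was Cytl1. Acan, the proteoglycan of cartilage, had 45.4, 12 and 5.6 CPM in these 3 libraries and at most 2.34 CPM elsewhere. All 8 markers were above 0 in each of the 3, and also in DE 3, DE+PFD 3 and DE+PFD+RIC 1. Adipocyte markers were also highest there, at 1696 CPM in DE 1, 1074 in RIC+DE 1 and 584 in DE+PFD 1. The part of cartilage in the samples in these values was not tested. Each of the 3 contrasts in which DESeq2 called Col10a1 includes DE 1.

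**Figure D5:**
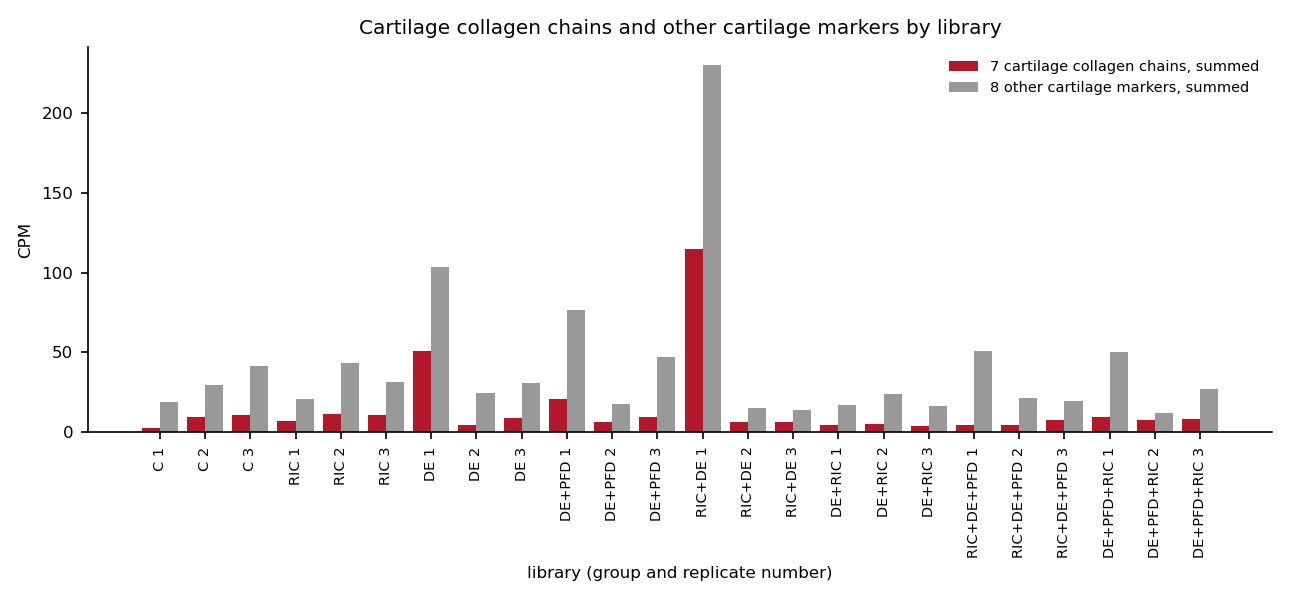
Summed CPM of the 7 cartilage collagen chains (red) and of 8 other cartilage markers (grey) in each library, on a linear axis from 0. RIC+DE 1 (115 and 230.0 CPM), DE 1 (50.8 and 103 CPM) and DE+PFD 1 (20.9 and 76.6 CPM) are the highest libraries in both sums.

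Genes that make, process, bind or cut collagen were counted beside the chains, in 5 lists of 55 genes, of which 54 were tested. None was called in the 10 contrasts. Of the 18 genes for modification and folding (prolyl and lysyl hydroxylases, chaperones and export factors), 10 were above 0 in RIC+DE against DE with a median of 0.037, and 13 in DE+PFD+RIC against DE with 0.19, both below the medians of the chains. Colgalt2, which adds galactose to hydroxylysine, stood at 0.72 ± 0.19 (edgeR adjusted p = 0.529) in DE+PFD+RIC against DE and at 0.47 ± 0.12 (edgeR adjusted p = 0.531) over all conditioned diesel groups. Serpinh1, the collagen chaperone HSP47, stood at 0.65 ± 0.28 (edgeR adjusted p = 1.00) in RIC against C. Of the 12 tested genes for propeptide processing and crosslinking, Adamts14, a propeptidase, stood at 1.63 ± 0.46 (edgeR adjusted p = 0.274) in RIC+DE against DE, while Lox, the crosslinking lysyl oxidase, stood at -0.86 ± 0.25 (edgeR adjusted p = 0.336) in RIC+DE+PFD against DE. The 7 fibril-binding proteoglycans had 7 of 7 below 0 in the pirfenidone groups, with a median of -0.10. Of the 10 receptors, 8 were above 0 in RIC+DE against DE with a median of 0.25. Of the 7 genes that cut collagen, all 7 were below 0 in the conditioned diesel groups with a median of -0.19. All 7 were above 0 in DE+PFD against DE with 0.22, but 4 of 7 in RIC+DE and in DE+RIC against DE. Of all genes, 50.3% were above 0 in RIC+DE against DE, 48.9% in DE+PFD+RIC against DE and 49.1% in DE+PFD against DE. In the conditioned groups 49.4% were above 0 and in the pirfenidone groups 54.7%. Over the conditioned against the unconditioned diesel groups, Mmp13, a collagenase, stood at -0.76 ± 0.28 (edgeR adjusted p = 0.705) and Fap, a fibroblast peptidase, at -0.76 ± 0.35 (edgeR adjusted p = 0.737). Genes named here had an unadjusted p under 0.05 and were picked after their values were seen. The counts of genes above or below 0 in these lists were also picked after they were seen.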

How the data were processed

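Whole lung was stored in RNAlater and RNA extracted with TRIzol, and poly(A) libraries were made with strand-specific amplification, per the labels' protocols. The authors deposited raw counts per gene, which they made with fastp 0.23.4, STAR 2.7.11b and featureCounts on GRCm39, with FastQC 0.12.1, R 4.4.1 and DESeq2 also named, per the submitters' processing notes. No source used here gives the strand setting of the counting, so reads of overlapping or antisense genes may be counted with a chain. Gene identifiers were matched to symbols, types and exon lengths of GENCODE M21, a GRCm38 annotation, and genes with a symbol hold 98.4% of counts. The main test was edgeR 4.0.16 (R 4.3.3, limma 3.58.1): low count filter by group, TMM scaling, robust quasi-likelihood fit of group and date over all 24 libraries, and Benjamini-Hochberg adjustment over 17490 genes, called at an adjusted p under 0.05. CPM values use TMM-scaled library sizes. Python 3.11.15 with SciPy 1.17.1 and pandas 2.3.3 gave the permutation tests, and Matplotlib 3.10.9 the figures. DESeq2 1.42.0, other scaling, other filters, other batch terms, fewer libraries and each library left out were tried as alternatives. The edgeR step was tested on simulated data. Members and lists were chosen with earlier results of these data known. Each contrast names the 3 chains with the smallest p and the pooled contrasts also Col1a1, the levels name the 3 highest chains of each class and their partners, and chains under the filter are named with their highest CPM. Values of Col1a1, Col3a1, Col4a1 and Col4a2 in single contrasts, the cartilage chains and the remaining levels were added after values were seen.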

Additional observations from a re-analysis of the deposited data

How the results depend on the processing

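Of the counts of called chains, class medians and other main values recomputed under each alternative, 1461 kept their direction and side of the threshold and 32 moved, and the cause was not tested where none is given. Without the filter on low counts edgeR called 3 chains in DE against C (0.481% of all genes), 7 in RIC+DE against DE (2.73%), 3 in DE+RIC against DE (0.554%), 5 in RIC+DE+PFD against DE (0.839%), 3 in DE+PFD+RIC against DE (0.74%), 4 in conditioned against unconditioned diesel groups (0.646%), 13 (5.27%), 2 (0.397%) and 1 (0.699%) in the interactions of pirfenidone with conditioning before and during the exposure and of diesel with conditioning, and 0 in the rest. DESeq2 called 2 in RIC+DE against DE (0.443%), 1 each in DE+RIC (0.047%), RIC+DE+PFD (0.224%) and conditioned groups (0.0411%), and 3 in the first interaction (14.4%). With the compared groups alone, which fits fewer libraries, 5 chains were called in RIC+DE against DE (23.6% of all genes), the fibrillar median there was 0.32, and in RIC+DE+PFD against DE the basement membrane and other medians were 0.17 and 0.40. With October libraries alone the basement membrane median in RIC+DE+PFD against DE was 0.17 and the fibrillar median in DE+PFD+RIC against DE -0.17. Such a fit was not possible for contrasts with RIC+DE, which has no October library. Without RIC+DE+PFD 1 and DE 1 the basement membrane median in RIC+DE against DE was 0.27, and in RIC+DE+PFD against DE the 3 class medians were -0.084, 0.23 and 0.33. Leaving out 1 library at a time gave 0 to 1 called chains in RIC+DE against DE (1 without RIC+DE 2, with 0.306% of all genes) and 0 to 3 in the first interaction (2 without RIC 1, 3 without RIC+DE+PFD 2 and 1 without RIC+DE+PFD 3, with 9.37%, 16.3% and 11.1% of all genes). The fibrillar median ranged over 0.29 to 1.16 in RIC+DE against DE, and in RIC+DE+PFD against DE over -0.88 to -0.20 for fibrillar, -0.46 to 0.17 for basement membrane and -0.46 to 0.037 for other chains. Col1a1 in the conditioned groups turned to -0.043 without the term for the date, -0.062 with a replicate block in its place, -0.034 without DE 2 and -0.0039 without DE+RIC 1, within a range of -0.034 to 0.18 over all libraries left out. With the replicate number as a block beside the date, Col10a1 in DE against C turned to -0.10, the median of all chains in RIC+DE against DE was 0.72, and no chain was called in DE against C. Samples with the same number in the labels did not deviate together in the median (median r -0.000899 over 84 pairs, 0.00114 over 168 pairs with different numbers). No pairing by number was seen, though a median r cannot exclude one. In simulated counts of 17490 genes for DE against C, 75 of 100 genes changed 4-fold in either direction and 26 of 100 changed 2-fold were recovered, with 9 false calls. Most 2-fold differences were thus missed in that setting. It was 1 draw without a date effect, and its spread took in differences between groups. How many changes the real contrast missed is not known from it.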
